A study of Homo sapiens with 3 samples.

Results

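The 4 kinases that phosphorylate the alpha subunit of eIF2, together with 6 genes that switch them on, hold them back or reverse what they do, were followed in ribosome footprints of HEK293T cells expressing wild-type (WT), G245S or R273H p53. The 10 genes were chosen by name and role, by a rule that uses no measured value. The choice was made with earlier results of these data known. They are EIF2AK1, EIF2AK2, EIF2AK3, EIF2AK4, DELE1, OMA1, YME1L1, GCN1, IMPACT and PPP1R15B, out of 63241 genes in the deposited table. All 10 passed the filter on low counts, as did 19820 genes in all.

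HEK293T cells derive from human embryonic kidney and express large T antigen of SV40, a viral protein that binds p53. The lines were made with lentivirus and selected with puromycin per the study's methods, although the labels call the cells both stable and transient and the treatment label of both mutants names the wild-type construct, so groups were taken from the sample titles. G245S and R273H replace residues of the p53 DNA-binding domain that are often mutated in tumours. Each group had 3 dishes, all held with cycloheximide before lysis, and per the labels the dishes of a group were joined in 1 pool at reverse transcription. Group and pool therefore cannot be told apart, p-values measure the spread between dishes of a pool, and no group without a p53 construct was analysed here.

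Phosphorylated eIF2 traps its exchange factor eIF2B, which lowers initiation on most mRNAs and lets a few, such as that of the transcription factor ATF4, be translated more. This is the integrated stress response. Each kinase reads a different stress: EIF2AK1 (HRI) low heme and signals from mitochondria, EIF2AK2 (PKR) double-stranded RNA, EIF2AK3 (PERK) unfolded protein in the endoplasmic reticulum, and EIF2AK4 (GCN2) uncharged tRNA and stalled ribosomes.

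The 9 libraries held 18.7 to 24.6 M expected counts. Dish 3 stood apart in every group: the chi-square per degree of freedom over 12656 genes was 1.88 to 2.62 for pairs with dish 3 and 1.48 to 1.56 for dishes 1 and 2. CDKN1A and MDM2, targets that WT p53 activates, averaged 61.1 and 860 CPM (counts scaled to a common library total) in WT against 16.1 and 76.8 in G245S and 13.9 and 76.7 in R273H, so the libraries titled as mutants had fewer footprints of both. Of the epithelial markers, KRT18 (108 to 121 CPM) and KRT8 (32.4 to 44.5 CPM) were well covered, EPCAM and CDH1 lay between 3.28 and 8.58 CPM, and KRT19 was at or near 0. Of 6 markers of other cell types, 5 stayed at or below 0.42 CPM, and the fibroblast collagen COL1A1 lay between 25 and 34 CPM and was lower in both mutants. KRT8 was higher in R273H than in WT, by 0.36 on the log2 scale. Of 3 genes listed for the HEK293 background, VIM (875 to 997 CPM) and NEFM (258 to 283 CPM) lay above the keratins. PAX2 lay between 5.01 and 8.24 CPM. On the log2 scale VIM was higher in G245S than in WT, by 0.15, and PAX2 in R273H, by 0.35. The part of these markers in the results was not tested.

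Footprints of the 10 genes differed little between the p53 constructs, and the changes that passed the test were small. In R273H against WT, DELE1 fell by 13.8% and YME1L1 rose by 9.97%. The other 8 genes did not pass the test in R273H, and none of the 10 passed it in G245S against WT or in G245S against R273H. A gene was called at an adjusted p under 0.05 in edgeR's quasi-likelihood test over all 19820 genes. The 0 of 10 called in G245S stand beside 24.7% of all genes tested and 35.7% of genes within the same range of mean CPM (9.84 to 369). For R273H, the 2 of 10 stand beside 28.8% and 40.4%. Between the mutants, 0 of 10 stand beside 2.59% and 3.45%. At an unadjusted p under 0.05 the counts were 3, 4 and 1. Without dish 3 of every group, DELE1 (-0.24, adjusted p = 0.00255) and YME1L1 (0.17, adjusted p = 9.64e-06) were again the 2 called in R273H, YME1L1 was also called in G245S (0.11, adjusted p = 0.00217), and 0 were called between the mutants. The sizes were small as well: the median absolute log2 fold change of the 10 genes was 0.07 in G245S and 0.05 in R273H, against 0.15 and 0.15 over all genes and 0.10 and 0.11 within the same range of CPM. Taking the end of each gene's 95% interval farthest from no change, no gene reached beyond 1.27-fold in G245S or 1.26-fold in R273H against WT. Both contrasts share the WT dishes, so they are not independent of each other, and footprints alone do not separate the amount of an mRNA from how often it is translated.

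**Figure D1:**
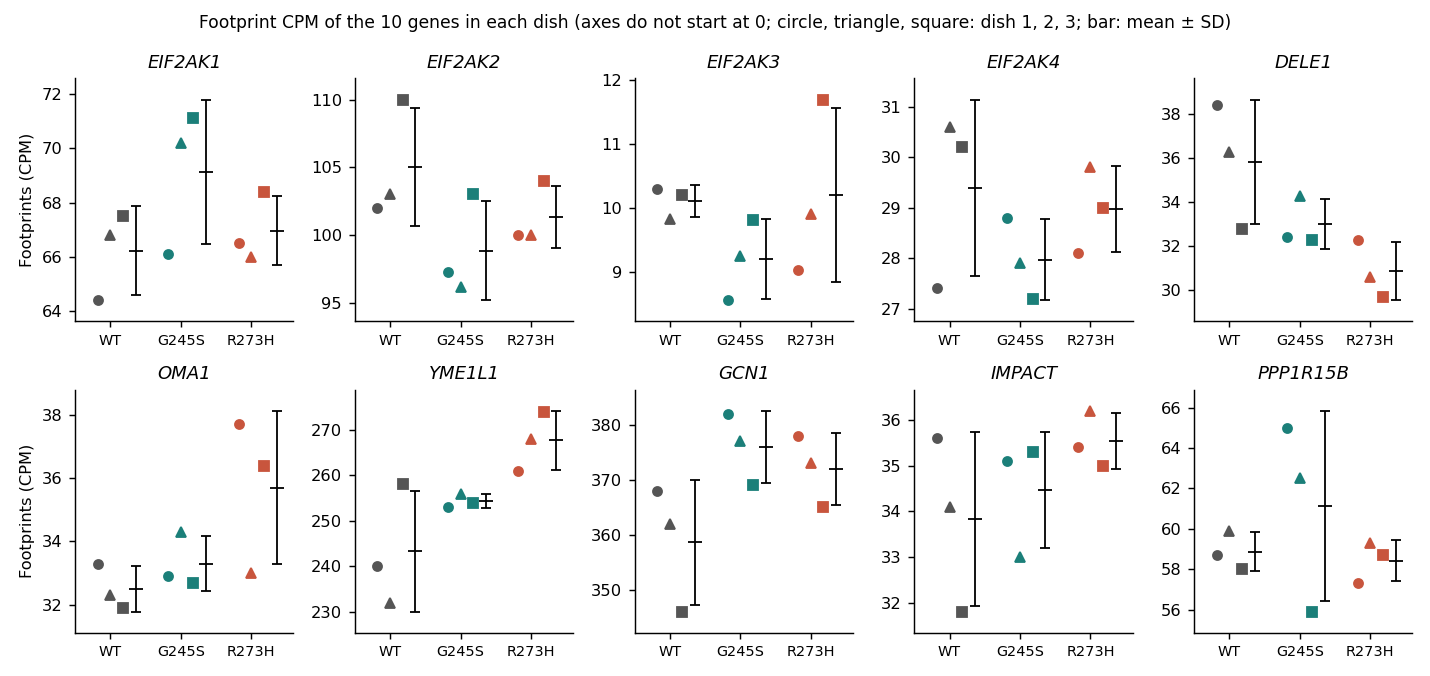
Footprints of each gene in CPM (vertical axes, which do not start at 0) for WT, G245S and R273H p53 (horizontal axis), with circles, triangles and squares for dishes 1, 2 and 3 and a bar for the mean ± SD of 3 dishes. In R273H, the DELE1 dishes (29.7 to 32.3 CPM) lie below every WT dish, and the YME1L1 dishes (261 to 274 CPM) lie above every WT dish, while EIF2AK1, EIF2AK4, IMPACT and PPP1R15B overlap between all groups.

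Set against the length of their coding sequences, the genes spanned a wide range of footprint density. YME1L1 stood highest with 119 CPM per kb over 9 dishes, followed by EIF2AK2 with 61.6, GCN1 with 46, IMPACT with 36, EIF2AK1 with 35.7, PPP1R15B with 27.8, DELE1 with 21.5, OMA1 with 21.5, EIF2AK4 with 5.82 and EIF2AK3 with 2.94 CPM per kb. The dishes of IMPACT and EIF2AK1 overlapped, as did those of DELE1 and OMA1, and every other neighbouring pair in this order was separate in all dishes. The median over 13615 protein-coding genes was 15.4 CPM per kb, with quartiles of 4.45 and 52.4, so EIF2AK3 lay below the lower quartile and YME1L1 and EIF2AK2 above the upper. Whether the authors counted coding sequence alone or whole transcripts is not given in the sources used here, so a density per coding length carries that doubt.

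**Figure D2:**
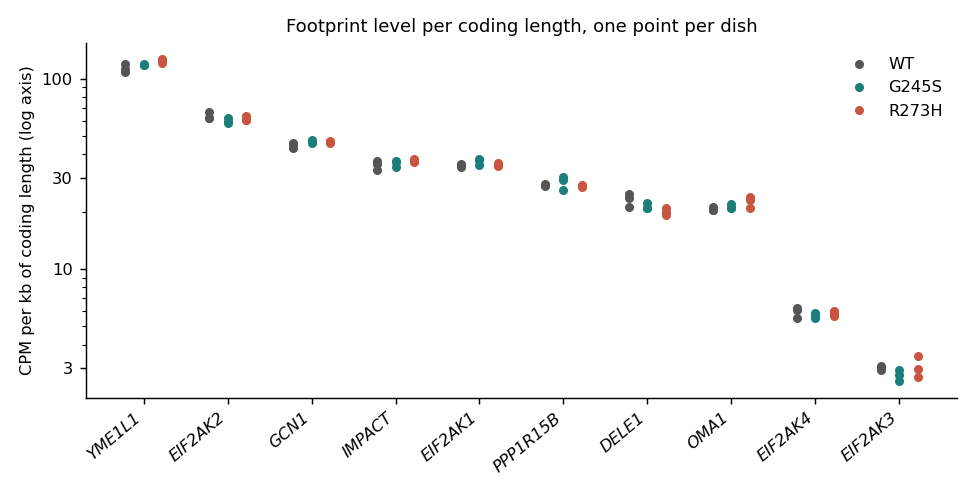
Footprint level per kb of coding length (vertical log axis, CPM per kb) for the 10 genes in falling order, with 1 point for each dish coloured by p53 construct. The 3 constructs lie close together for each gene at this scale, and the genes run from 119 CPM per kb in YME1L1 to 2.94 in EIF2AK3.

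The 4 kinases differed far more from each other than between p53 constructs. Their summed footprints came to 201 to 218 CPM in every dish. Of the sum of their densities per coding kb, EIF2AK2 took 56.1% to 59.8% and EIF2AK1 32% to 35.8%. EIF2AK4 took 5.09% to 5.8%, and EIF2AK3 2.5% to 3.21%. The double-stranded RNA and heme sensors together held most of the kinase footprints in these cells.

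EIF2AK1 encodes HRI, first known as the kinase that matches globin synthesis to heme in red cell precursors. Its gene lies on chromosome 7 (GRCh38, chr7:6022247-6059175, minus strand, 15 exons). It had 64.4, 66.8 and 67.5 CPM in WT dishes 1 to 3, 66.1, 70.2 and 71.1 CPM in G245S, and 66.5, 66.0 and 68.4 CPM in R273H. All 3 groups overlapped. The log2 fold change against WT was 0.06 in G245S (SE 0.0403, 95% interval -0.02 to 0.15, adjusted p = 0.269) and 0.02 in R273H (SE 0.0395, -0.06 to 0.10, adjusted p = 0.803). AIMP2, on the other strand, shares 532 exonic bases with EIF2AK1 and rose by 0.16 and 0.13 in the mutants. Counting by strand is not given in the sources used here, so their shared reads cannot be told apart, and EIF2AK1 also has 1 named pseudogene.

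EIF2AK2 encodes PKR, an interferon-induced kinase that viral double-stranded RNA activates (chr2:37099210-37157522, minus strand, 17 exons). The RefSeq table of promoter sequences (GRCh38.p14) held 8 of the 10 genes, EIF2AK1 and YME1L1 not among them. The window of EIF2AK2 is shown for the interferon-stimulated response element core TTTCNNTTTC, searched on both strands, which it holds on the minus strand as GAAAACGAAA. It covers chr2:37156971-37157230 on the minus strand, from 250 bases before the RefSeq start to the first 10 bases after it, inside the GENCODE gene, with the element in capitals:
EIF2AK2: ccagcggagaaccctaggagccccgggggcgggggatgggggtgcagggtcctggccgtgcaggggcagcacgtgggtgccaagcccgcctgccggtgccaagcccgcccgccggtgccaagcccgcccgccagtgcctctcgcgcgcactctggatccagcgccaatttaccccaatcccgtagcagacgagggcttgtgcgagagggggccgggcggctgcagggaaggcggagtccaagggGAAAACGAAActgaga
The element reaches from 6 bases before the start into the first bases of the transcript, and 3.57% of 35116 RefSeq windows of 300 bases hold a match to these letters. A match describes the sequence and shows no binding. Footprints of EIF2AK2 were 102, 103 and 110 CPM in WT, 97.3, 96.2 and 103 CPM in G245S, and 100, 100 and 104 CPM in R273H. Dish 3 was the highest of each group, and the groups overlapped. The difference from WT was -0.09 in G245S (SE 0.0372, 95% interval -0.17 to -0.01, adjusted p = 0.0744) and -0.05 in R273H (SE 0.0363, -0.13 to 0.02, adjusted p = 0.315). Without G245S dish 3, the G245S value was -0.12 with an adjusted p of 0.0385. That was the 1 call among 9 fits that each left out 1 dish. Without WT dish 3 the G245S value was -0.05, with an adjusted p of 0.378. Library totals as the only scaling gave a call in G245S too (-0.11, adjusted p = 0.0234), and offsets for coding length and GC content gave calls in both mutants (-0.08, adjusted p = 0.0228, and -0.10, adjusted p = 0.00306). The processed pseudogene ARL14EPP1, on the other strand, shares 401 exonic bases with EIF2AK2. GPATCH11, also on the other strand, shares 35 exonic bases with EIF2AK2 and was lower by 0.23 and 0.17 on the log2 scale.

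EIF2AK3 encodes PERK, the eIF2 kinase of the endoplasmic reticulum membrane (chr2:88556741-88691518, minus strand, 17 exons), and it had the fewest footprints of the 10. It gave 10.3, 9.83 and 10.2 CPM in WT, 8.56, 9.25 and 9.81 CPM in G245S, and 9.03, 9.91 and 11.7 CPM in R273H. Every G245S dish lay just below every WT dish, whereas R273H spread across both. With 158 to 271 footprints a dish, the intervals were the widest here: -0.13 in G245S (SE 0.103, 95% interval -0.34 to 0.08, adjusted p = 0.385) and 0.01 in R273H (SE 0.0983, -0.19 to 0.21, adjusted p = 0.952). An lncRNA gene on the other strand shares 781 of its exonic bases. Neither PERK value passed the test, and changes of any size within those intervals remain compatible with these counts.

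EIF2AK4 encodes GCN2, the kinase of this family that budding yeast also has (chr15:39934115-40035591, plus strand, 39 exons). Its promoter window is shown because, among the 8, it holds the only match to a p53 half-site, the decamer motif of which p53 sites are built. The window covers chr15:39933865-39934124 on the plus strand, with the match in capitals, 103 to 94 bases before the start:
EIF2AK4: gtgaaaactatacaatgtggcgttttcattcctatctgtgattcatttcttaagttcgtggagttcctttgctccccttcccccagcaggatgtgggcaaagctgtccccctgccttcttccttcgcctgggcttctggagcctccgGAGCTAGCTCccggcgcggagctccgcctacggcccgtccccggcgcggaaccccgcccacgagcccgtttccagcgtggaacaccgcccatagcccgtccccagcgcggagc
The match reads the same on both strands, and 6.63% of all windows hold 1 or more such matches. It is a description of letters, and a full p53 site needs a pair of half-sites. EIF2AK4 had 27.4, 30.6 and 30.2 CPM in WT, 28.8, 27.9 and 27.2 CPM in G245S, and 28.1, 29.8 and 29.0 CPM in R273H. The groups overlapped, with G245S dish 3 the lowest and WT dish 2 the highest. Against WT the log2 fold change was -0.07 in G245S (SE 0.0581, 95% interval -0.19 to 0.05, adjusted p = 0.404) and -0.02 in R273H (SE 0.0561, -0.14 to 0.09, adjusted p = 0.804).

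GCN1 is a very large scaffold that sits on colliding ribosomes and activates GCN2 (chr12:120127202-120194715, minus strand, 58 exons), and it had the most footprints of the 10 before length is considered. WT dishes gave 368, 362 and 346 CPM, G245S dishes 382, 377 and 369 CPM, and R273H dishes 378, 373 and 365 CPM. In each group dish 1 was highest and dish 3 lowest. All G245S dishes lay above all WT dishes, the highest WT dish by a narrow margin, and R273H overlapped WT. The difference from WT was 0.07 in G245S (SE 0.0264, 95% interval 0.01 to 0.12, adjusted p = 0.0615) and 0.05 in R273H (SE 0.0262, 0.00 to 0.11, adjusted p = 0.125). Neither passed the test. With offsets for coding length and GC content both did (0.08, adjusted p = 0.00389, and 0.07, adjusted p = 0.013), and with upper-quartile scaling G245S did (0.08, adjusted p = 0.0307). The G245S value was also called without G245S dish 3 (0.09, adjusted p = 0.0338) and without WT dish 1 (0.09, adjusted p = 0.0346). Those were 2 of 9 fits that each left out 1 dish. Without WT dish 3 it was 0.05 (adjusted p = 0.215). In all, 6 of 21 alternative fits called it.

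IMPACT competes with GCN2 for GCN1 and so restrains the kinase, and is best known from neurons (chr18:24426634-24453531, plus strand, 11 exons). It had 35.6, 34.1 and 31.8 CPM in WT, 35.1, 33.0 and 35.3 CPM in G245S, and 35.4, 36.2 and 35 CPM in R273H. WT dish 3 was the lowest, and all groups overlapped. The log2 fold change was 0.03 in G245S (SE 0.0540, 95% interval -0.08 to 0.14, adjusted p = 0.775) and 0.07 in R273H (SE 0.0522, -0.04 to 0.18, adjusted p = 0.334).

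The 2 calls of 10 in R273H were DELE1 and YME1L1, which both encode mitochondrial proteins. They stand beside 28.8% of all genes tested and 40.4% within the same range of CPM. DELE1 is imported into mitochondria, and under stress the protease OMA1 cuts it so that its fragment, or the full protein held outside, binds HRI in the cytosol. The gene lies at chr5:141923855-141942047 (plus strand, 12 exons), and no annotated gene overlaps it. Its promoter window is shown as that of the gene with the largest change here and covers chr5:141923621-141923880 on the plus strand. It holds none of the 3 motifs searched (the interferon element, the p53 half-site and the C/EBP-ATF element described with PPP1R15B), so no base is in capitals:
DELE1: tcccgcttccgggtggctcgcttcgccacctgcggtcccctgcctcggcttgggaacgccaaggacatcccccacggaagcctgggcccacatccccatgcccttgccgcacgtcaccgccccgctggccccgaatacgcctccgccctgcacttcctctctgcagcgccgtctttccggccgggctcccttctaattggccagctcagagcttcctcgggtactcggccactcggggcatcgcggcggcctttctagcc
DELE1 had 38.4, 36.3 and 32.8 CPM in WT dishes 1 to 3, 32.4, 34.3 and 32.3 CPM in G245S, and 32.3, 30.6 and 29.7 CPM in R273H. All R273H dishes lay below all WT dishes, WT dish 3 being close to them, and G245S overlapped both groups. In R273H the log2 fold change was -0.21 (SE 0.0571, 95% interval -0.33 to -0.10, adjusted p = 0.00512), lower in 3 of 3 dishes. In G245S it was -0.12 (SE 0.0582, 95% interval -0.24 to -0.00, adjusted p = 0.14), which did not pass. The mutants differed by 0.10 (SE 0.0576, 95% interval -0.02 to 0.21, adjusted p = 0.445), so a stronger fall in R273H than in G245S was not shown. The call rests in part on WT dish 1: without it the R273H value was -0.16 with an adjusted p of 0.0592. Without WT dish 3, in contrast, DELE1 was called lower in G245S as well (-0.175, adjusted p = 0.0323).

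OMA1 is the stress-activated protease of the inner membrane that cuts DELE1 and the fusion protein OPA1 (chr1:58415384-58546802, minus strand, 9 exons). It had 33.3, 32.3 and 31.9 CPM in WT, 32.9, 34.3 and 32.7 CPM in G245S, and 37.7, 33.0 and 36.4 CPM in R273H. Of the R273H dishes, 1 and 3 lay above all others, and dish 2 fell within WT. The log2 fold change was 0.03 in G245S (SE 0.0563, 95% interval -0.08 to 0.15, adjusted p = 0.714) and 0.13 in R273H (SE 0.0541, 0.02 to 0.25, adjusted p = 0.0627). Without R273H dish 2 the R273H value was 0.19 with an adjusted p of 0.0155, the 1 call among 9 fits that each left out 1 dish. Those 9 values ran from 0.09 to 0.19, with adjusted p up to 0.29. With upper-quartile scaling the R273H value was called too (0.15, adjusted p = 0.0378). DAB1, on the same strand, shares 257 exonic bases with OMA1 and had at most 0.70 CPM in any dish. The part of this overlap in the OMA1 values was not tested.

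YME1L1 is the ATP-driven protease of the inner membrane that faces the intermembrane space, also cuts OPA1, and degrades OMA1 in depolarized mitochondria (chr10:27110111-27155266, minus strand, 19 exons). It had 240, 232 and 258 CPM in WT, 253, 256 and 254 CPM in G245S, and 261, 268 and 274 CPM in R273H. The R273H dishes lay above every WT and every G245S dish, and the G245S dishes fell within the WT range. In R273H the log2 fold change was 0.14 (SE 0.0309, 95% interval 0.07 to 0.20, adjusted p = 0.00126), higher in 3 of 3 dishes. In G245S it was 0.06 (SE 0.0314, 95% interval -0.00 to 0.13, adjusted p = 0.147). Between the mutants it was -0.07 for G245S against R273H (SE 0.0307, 95% interval -0.14 to -0.01, adjusted p = 0.226), which did not pass. Without WT dish 3, YME1L1 was called higher in G245S too (0.11, adjusted p = 0.00543). That was the 1 call among 9 fits that each left out 1 dish, whose G245S values ran from 0.03 to 0.11. Offsets for coding length and GC content lowered the R273H value to 0.09, still called, whereas testing for changes beyond 1.2-fold called neither YME1L1 nor DELE1.

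YME1L1 shares exons with a neighbour on the other strand, MASTL, a mitotic kinase. The shared stretch is 443 of 7336 exonic bases of YME1L1. MASTL averaged 47.9 ± 3.34 CPM in WT (SD, n = 3 dishes), 52.1 ± 3.17 CPM in G245S and 55.5 ± 0.868 CPM in R273H. It was called higher in R273H (0.21, adjusted p = 0.00162) and not in G245S (0.13, adjusted p = 0.0742). Its level was far below that of YME1L1, and its part in the YME1L1 result was not tested, nor was that of the 1 named YME1L1 pseudogene.

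PPP1R15B (CReP) is the constitutive partner of protein phosphatase 1 that strips phosphate from eIF2 in unstressed cells (chr1:204396492-204411887, minus strand, 2 exons), and an lncRNA gene on the other strand shares 523 of its exonic bases. Its promoter window is shown for the C/EBP-ATF response element core TGATGNAAN, which transcription factors of the ATF4 kind recognise, searched on both strands and found as TGATGCAAC 227 to 219 bases before the start. It covers chr1:204411808-204412067 on the minus strand, with the match in capitals:
PPP1R15B: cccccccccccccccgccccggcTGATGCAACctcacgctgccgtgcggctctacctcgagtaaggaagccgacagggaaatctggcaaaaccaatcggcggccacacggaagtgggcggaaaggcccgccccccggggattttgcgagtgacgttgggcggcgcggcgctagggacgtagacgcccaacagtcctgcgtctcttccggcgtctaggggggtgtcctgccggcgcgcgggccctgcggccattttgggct
Of all windows, 3.61% hold this core, and among the 8 windows PPP1R15B alone did. PPP1R15B had 58.7, 59.9 and 58.0 CPM in WT, 65.0, 62.5 and 55.9 CPM in G245S, and 57.3, 59.3 and 58.7 CPM in R273H. The G245S dishes spread widest, with both the highest and the lowest value, and all groups overlapped. The log2 fold change was 0.05 in G245S (SE 0.0470, 95% interval -0.04 to 0.15, adjusted p = 0.47) and -0.01 in R273H (SE 0.0461, -0.10 to 0.08, adjusted p = 0.896).

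Counted by dishes alone, without a model, EIF2AK3 and GCN1 did not overlap WT in G245S, and DELE1 and YME1L1 did not overlap WT in R273H. These 2 of 10 in each contrast stand beside 37.4% and 41.2% of all genes tested. YME1L1 was the 1 gene whose mutant groups did not overlap each other, beside 21.5% of all genes.

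**Figure D3:**
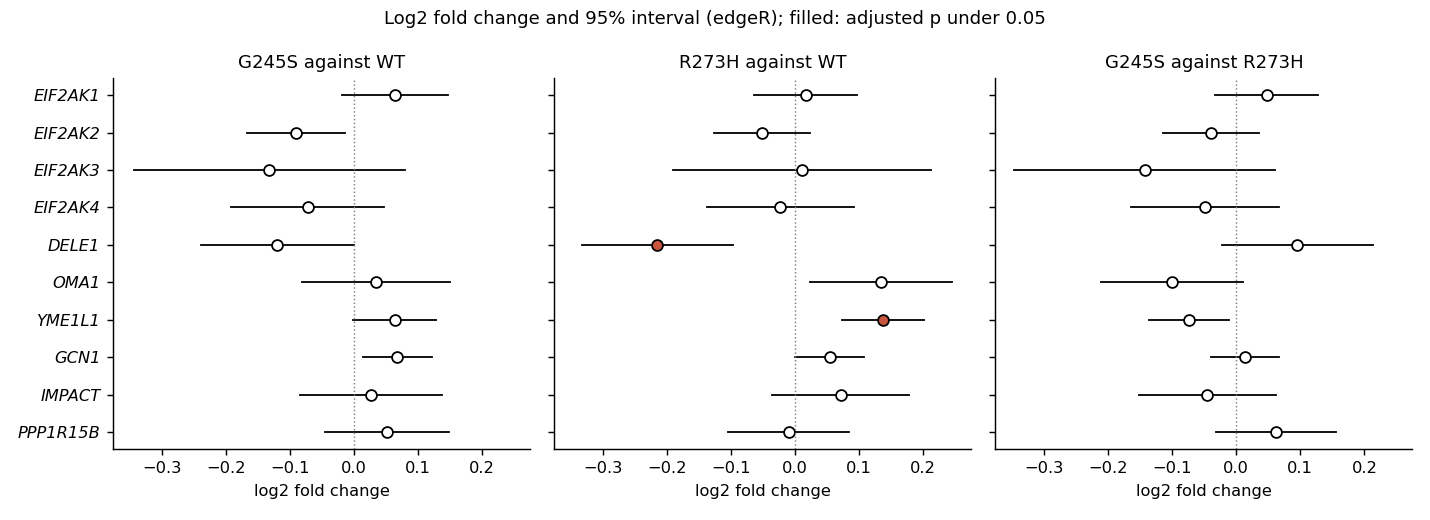
Log2 fold change (horizontal axis) with its 95% interval for each gene in the 3 contrasts, from edgeR over 3 dishes a group, with filled points for an adjusted p under 0.05. DELE1 (-0.21) and YME1L1 (0.14) in R273H against WT are the filled points, and no interval reaches beyond 1.27-fold.

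**Figure D4:**
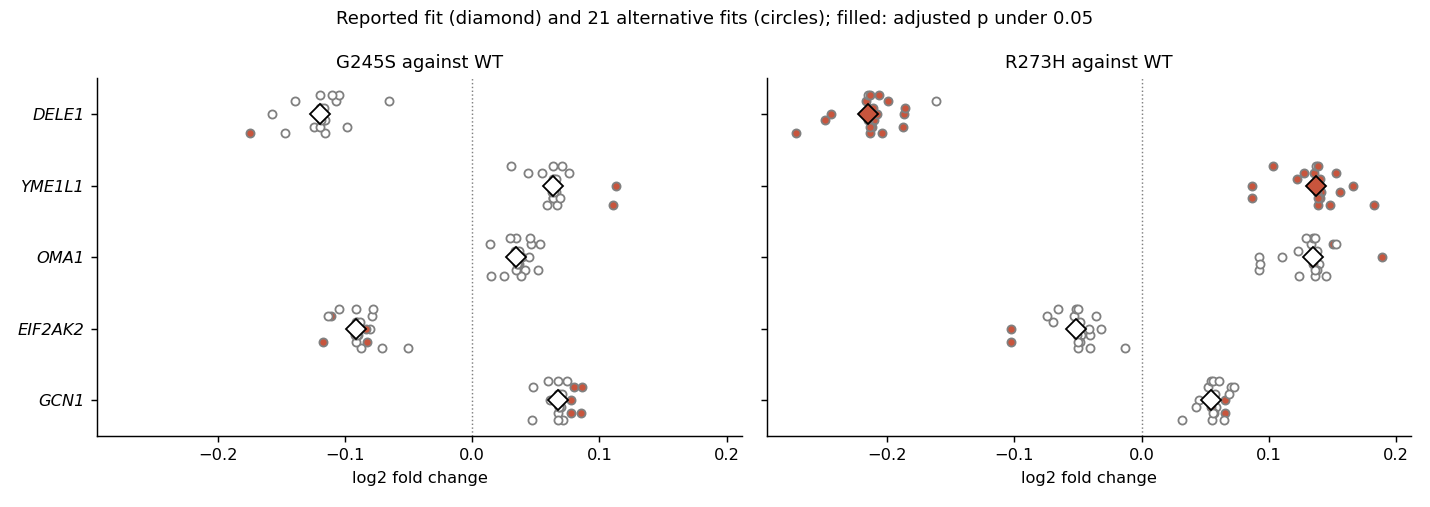
Log2 fold change (horizontal axis) of DELE1, YME1L1, OMA1, EIF2AK2 and GCN1 in the reported fit (diamonds) and 21 alternative fits (circles), filled where the adjusted p was under 0.05. DELE1 in R273H stayed negative (-0.27 to -0.16) and was called in 19 of 21 alternatives, YME1L1 stayed positive (0.09 to 0.18) and was called in 20 of 21.

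Of 10 genes of eIF2, eIF2B and their partners, 5 rose and 0 fell in each mutant, and the list's median log2 fold change was 0.08 in each, against -0.00 over all genes tested. CDC123, which assembles the eIF2 complex, rose by 0.17 and 0.20 (adjusted p = 2.2e-05 and 9.82e-07 for G245S and R273H). EIF2S1, the alpha subunit that all 4 kinases phosphorylate, rose from 213 CPM in WT to 228 and 234 CPM, a log2 fold change of 0.10 and 0.14 (adjusted p = 0.0233 and 0.00131). The gamma subunit EIF2S3 rose by 0.13 and 0.15 and the eIF2B subunit EIF2B3 by 0.10 and 0.18, whereas EIF2S2 (0.06 and 0.03) and EIF2B1 (-0.03 and -0.07) did not pass. These and the following counts stand beside the 24.7% (G245S) and 28.8% (R273H) of all genes called in either direction, and the 35.7% and 40.4% called within the CPM range of the 10 genes. Lists are described by counts and medians alone, and no list was tested against these shares.

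On the phosphatase side, 1 of 5 genes rose in G245S, and 2 rose and 1 fell in R273H. The catalytic subunit PPP1CC rose by 0.17 and 0.19 (adjusted p = 0.000245 and 5.81e-05). PPP1R15A (GADD34), the stress-induced counterpart of PPP1R15B, had 5.75 CPM in WT, 5.08 in G245S and 6.01 in R273H and did not pass (-0.18 and 0.06), nor did the adaptor NCK1 (-0.01 and 0.08).

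Partners of the single kinases went in different directions. Among 6 chaperone and heme genes of the HRI branch, 3 rose and 1 fell in G245S, and 2 rose and 3 fell in R273H. ALAS1, the first enzyme of heme synthesis, rose by 0.15 and 0.18, the chaperone HSP90AB1 rose by 0.18 and 0.07, and the chaperone HSPA8 was lower, at -0.14 and -0.13. The heme gene FECH (-0.10 and -0.17) and the chaperone gene CDC37 (-0.06 and -0.11) were called lower in R273H alone. HSP90AA1 (0.12 and 0.03) was called higher in G245S alone. Of 7 genes around PKR and double-stranded RNA, 0 rose in either mutant, while 3 fell in G245S and 4 in R273H. TARBP2, a double-stranded RNA-binding protein that inhibits PKR, was lower, at -0.17 and -0.24, as were the antiviral adaptor MAVS, at -0.14 and -0.26, and the RNA-editing enzyme ADAR, at -0.07 and -0.08. The kinase inhibitor DNAJC3 (-0.03 and -0.04) did not pass.

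Of 8 genes of the endoplasmic reticulum stress response, 2 rose and 1 fell in G245S, and 1 rose and 1 fell in R273H. The sensor ERN1 (IRE1) rose from 6.72 CPM to 9.37 and 8.30 CPM, by 0.47 and 0.30 (adjusted p = 0.0014 and 0.0315). The chaperones HSPA5 (BiP), at 1241 CPM in WT, and HSP90B1, at 1164 CPM, moved by no more than 0.02 and did not pass. Of 11 genes around GCN2 and stalled ribosomes, 4 rose in G245S and 2 in R273H, and 0 fell. RPLP0, of the ribosomal stalk that activates GCN2, rose by 0.15 and 0.09, and DRG2 (-0.01 and -0.05) and ABCF3 (0.06 and 0.07) did not pass.

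Mitochondrial proteases and their partners mostly rose: 10 of 15 in G245S and 9 of 15 in R273H, with 0 falling and medians of 0.11 and 0.09. PGAM5, a phosphatase of the inner membrane, rose by 0.32 and 0.25, the matrix protease LONP1 by 0.19 and 0.21, the matrix-facing protease AFG3L2 by 0.19 and 0.18, and the scaffold prohibitin PHB1 by 0.19 and 0.17. STARD7 (0.03 and -0.05) and HTRA2 (-0.05 and -0.00) did not pass. Beside these, YME1L1 rose in R273H and did not pass in G245S, and OMA1 did not pass in either mutant. DELE1 fell in R273H and did not pass in G245S.

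The integrated stress response output held the largest changes. Of 16 genes, 9 rose and 3 fell in each mutant, with medians of 0.24 and 0.17. NUPR1, a stress-induced chromatin protein, rose by 1.08 and 1.07 from 0.621 CPM. CHAC1, which degrades glutathione, rose by 0.89 and 0.84 from 1.85 CPM, and the cystine transporter SLC7A11 by 0.63 and 0.52 from 11 CPM. SESN2, a leucine sensor that p53 also activates, was lower, at 50.9 CPM in G245S and 49.4 CPM in R273H against 83.4 CPM in WT (-0.71 and -0.76). CEBPB (0.19 and 0.12) and DDIT3, which encodes CHOP (-0.20 and 0.15), did not pass. ATF4 and ATF5, both translated more when eIF2 is phosphorylated, were looked at after their values were seen: ATF4 rose by 0.27 and 0.34 (adjusted p = 1.55e-07 and 1.07e-09), and ATF5 was lower, at -0.47 and -0.39 (adjusted p = 1.24e-05 and 7.15e-05). SLC7A11 is also known to be repressed by WT p53.

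**Figure D5:**
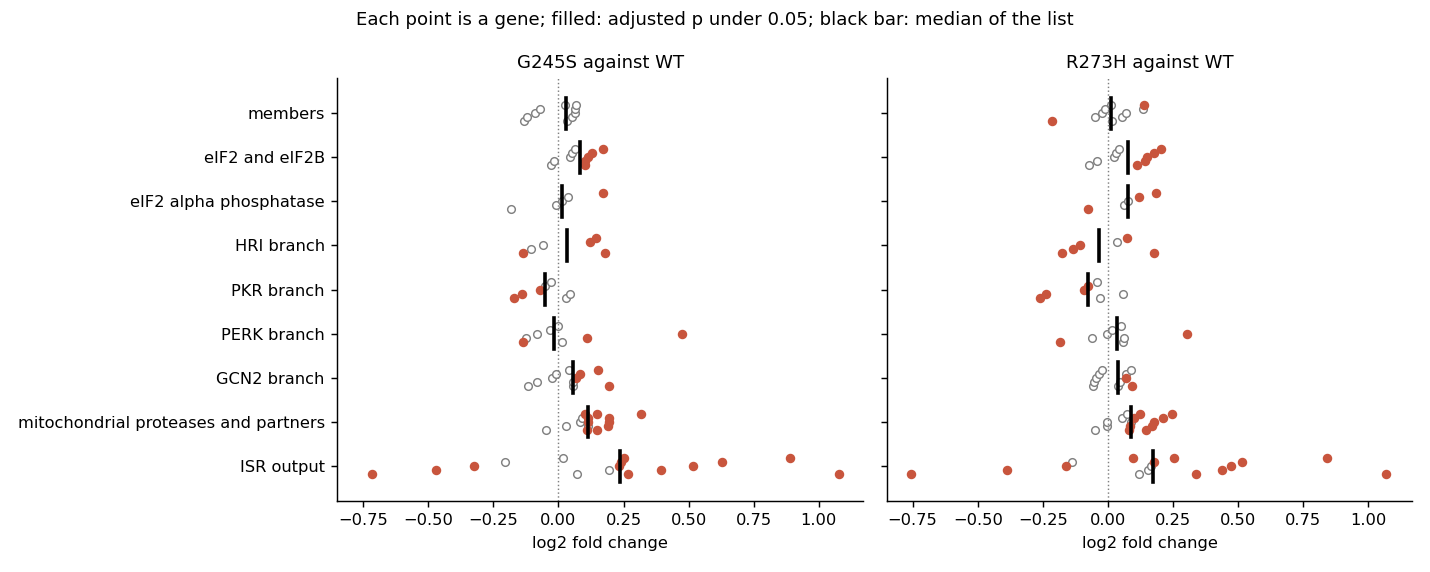
Log2 fold change (horizontal axis) of every tested gene of the 10 members and 8 pathway lists (rows) in G245S and R273H against WT, with filled points for an adjusted p under 0.05 and a black bar at each list's median. The members lie close to 0 (-0.21 to 0.14 in R273H), while the integrated stress response output runs from -0.76 to 1.07 in R273H. The upper end is NUPR1, with 0.621 CPM in WT, below the mean CPM of every member (9.84 to 369).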

How the data were processed

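Ribosome footprints of 3 dishes in each of 3 p53 groups were analysed. The authors trimmed reads with Trim Galore, which wraps cutadapt, read molecular barcodes where present with UMI-tools, removed rRNA reads with SortMeRNA, aligned to GRCh38 with STAR and sorted with SAMtools. They deposited expected counts per gene, not scaled for depth or length. The counting tool, annotation, strand setting and counted region are not given in the sources used here. Between 61.5% and 63.7% of nonzero values were not exactly whole. That share includes values a rounding step away from whole, such as 552.001 for EIF2AK4 in WT dish 1. Others were clearly fractional, such as 1297.682 for EIF2AK1 in WT dish 1, so some reads shared by similar genes were split by an estimate.

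Expected counts were rounded. edgeR 4.0.16 in R 4.3.3 (TMM, filterByExpr, robust glmQLFit, glmQLFTest, two-sided) was fitted to all 9 dishes with group as the only term, and p-values were adjusted by Benjamini-Hochberg over 19820 genes. The fit was tested on simulated data. TMM factors lay between 0.987 and 1.01. A shift shared by every gene cannot be detected without a spike-in. Coordinates and coding lengths came from GENCODE v44 and promoters from RefSeq. Fits differing in tool (DESeq2 1.42.0), scaling, filter, rounding, offsets, block, threshold or dishes were compared.

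The genes and lists were chosen with earlier results of these data known. All 10 genes are named, and of each list up to 4 genes called in both mutants, by largest mean log2 fold change, and up to 2 uncalled in both with the highest CPM; 1 gene that the rule names is not reported here. Per the labels, dishes of a group were pooled at reverse transcription. No matched RNA was used here.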

Additional observations from a re-analysis of the deposited data

Results flagged for a closer look

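HSP90AB1, a chaperone listed with the HRI branch, differed between the mutants by the direct test: its log2 fold change in G245S against R273H was 0.11 (adjusted p = 0.00549 in edgeR over all genes), with 2630 CPM in G245S and 2442 CPM in R273H.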

How the results depend on the processing

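The 10 genes called in G245S against R273H numbered 0 under all 21 alternatives. In G245S against WT, the 0 called became 2 with offsets for coding length and GC content, 1 without dish 3 of every group, 1 with library totals as the only scaling, 1 with upper-quartile scaling, 2 with the replicate block and 3 with the block and offsets together, and 0 to 2 when single dishes were left out. In R273H against WT, the 2 called became 4 with the offsets, 4 with the replicate block, 4 with both, 3 with upper-quartile scaling, 0 against a minimum fold change of 1.2, and 1 to 3 without single dishes. Over all genes, DESeq2 called 3052, 3573 and 325 genes in the G245S, the R273H and the mutant-to-mutant contrast, where edgeR called 4900, 5707 and 513, and the minimum fold change left 547, 693 and 3. For the mutants against each other, leaving out dish 3 of every group gave 1026 and the replicate block 1262, and leaving out single dishes gave 162 to 712. Library totals split the G245S calls into 2119 higher and 2843 lower, against 2498 and 2402. The labels give no meaning to the dish numbers, and the dishes were not treated as paired: same-numbered dishes of different groups correlated at 0.04 to 0.23 in their deviations, not all over 0.1. All 9 of these correlations were positive, those between dishes of different numbers ran from -0.19 to 0.06, and each dish correlated best with a dish of its own number, a hint from the data and not the design. The replicate block added calls of EIF2AK2 (-0.09, adjusted p = 0.0139) and GCN1 (0.07, adjusted p = 0.00607) in G245S, and of GCN1 (0.05, adjusted p = 0.0232) and OMA1 (0.13, adjusted p = 0.0384) in R273H. The causes of these changes were not tested. Of the 10 genes, EIF2AK3 had the fewest counts and the widest intervals.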
